A study of Mus musculus with 16 samples.

Results

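The mRNA levels of 10 well-known targets of the hypoxia-inducible factors were followed through the aortas of mice with and without 5/6 nephrectomy. The targets were Vegfa, Slc2a1, Pdk1, Ldha, Egln3, Bnip3, Ndrg1, Ankrd37, Adm and Pgk1. They were taken by gene symbol, 1 row for each symbol, so that the set holds 10 of the 54532 genes in the deposited tables. Bulk mRNA of the aorta was sequenced as 1 library from each of 16 C57BL/6J mice. All mice were male and 12 weeks old at surgery, and all groups began their diet 2 weeks after it. The Sham group (n = 4) had a sham operation and ate food with 2% phosphorus and 2.5% protein. The 5/6 Nx-HPi-Lp group (n = 4) had lost 5/6 of its kidney mass by nephrectomy and ate that same high-phosphate, low-protein food. The food of group 5/6 Nx-HPi-Hp (n = 4) held 2% phosphorus with 18% protein. That of group 5/6 Nx-LPi-Lp (n = 4) held 0.3% phosphorus with 2.5% protein. The mice stayed on these diets for 30 days. No Sham mice on the high-protein or the low-phosphate food were analysed here, so the comparisons of those diets with Sham join surgery and diet, which cannot be told apart. 5/6 nephrectomy in mice is a surgical model of chronic kidney disease, and the whole vessel was used, so that every cell type attached to it contributes RNA.

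The hypoxia-inducible factors are pairs of an oxygen-regulated subunit, Hif1a or Epas1, and a constant partner, Arnt. With oxygen present, prolyl hydroxylases of the Egln family mark the regulated subunit, and the Vhl ubiquitin ligase then removes it. Without oxygen the subunit lasts, enters the nucleus and binds short elements with the core ACGTG or GCGTG beside genes for glucose uptake, glycolysis, mitochondrial turnover, blood vessel growth and the hydroxylases themselves. The factor is controlled mainly as a protein, so its own mRNA need not move with that of its targets, and many targets are also regulated in other ways, such as by insulin or by cell type.

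The core was looked for in the 250 bases before each annotated start in the RefSeq promoters of GRCm38.p6, on both strands. RefSeq promoters were matched for Vegfa, Slc2a1, Pdk1, Ldha, Egln3, Bnip3, Ankrd37, Adm and Pgk1, 12 promoters in all, and Ndrg1 was unmatched. Either core was present in 10 of these 12 promoters and in at least 1 promoter of 9 of the 9 genes, against 38.6% of all 32851 promoters and 41.5% of 27025 genes. ACGTG alone was in 16.6% and GCGTG alone in 28.2% of all promoters. The motif ACGTG overlaps its own reverse complement wherever the letters CACGTG occur, as at Ldha and Bnip3, and such a place counts as a match on each strand. For each gene the ACGTG nearest to the start is printed with the bases around it, or the nearest GCGTG where there was no ACGTG, because these are the letters that the factors are known to bind. Letters run 5′ to 3′ on the strand of the gene, and capitals mark the core, which reads CACGT or CACGC where it lies on the opposite strand.
Ldha: cgtgggttcccgCACGTccgctgggctcc
Pgk1: aaatggaagtagCACGTctcactagtctc
Pdk1: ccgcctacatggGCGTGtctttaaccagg
Bnip3: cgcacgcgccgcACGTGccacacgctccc
Vegfa: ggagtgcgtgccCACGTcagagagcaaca
Slc2a1: gtcccgccccggACGTGctccccaggccc
Adm: ggcaaatctgacCACGCccaccgtccgcc
Egln3: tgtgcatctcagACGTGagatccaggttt
Ankrd37: cagtgtttgggtACGTGa
The Ldha window is chr7:46845758-46845786 (plus strand), 34 bases before a start that lies in an intron of the longest gene model of GENCODE vM21. The Pgk1 window is chrX:106186957-106186985 (plus strand), 131 bases before the start, and a further ACGTG stood 150 bases before it. The Pdk1 window is chr2:71873134-71873162 (plus strand), 78 bases before the start. The Bnip3 window is chr7:138909597-138909625 (minus strand), 107 bases before the start. The Vegfa window is chr17:46025358-46025386 (minus strand), and it precedes an internal start and lies in a coding exon of the longer transcripts. The Slc2a1 window is chr4:119108697-119108725 (plus strand), 36 bases before the start. The Adm window is chr7:110627591-110627619 (plus strand), 54 bases before the start. The Egln3 window is chr12:54204087-54204115 (minus strand), 229 bases before the start, the farthest of the 9. The Ankrd37 window is chr8:45999851-45999868 (minus strand), 6 bases before the start and inside a coding exon of another transcript. The neighbouring motif CACAG, often listed beside the core, was in 8 of the 12 promoters and in 56.3% of all promoters. These matches describe letters and say nothing of binding, and genes with higher and genes with lower levels in the 5/6 Nx groups both have one.

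The libraries held 13659525 to 57276915 counts. Mitochondrially encoded genes took 4.18% to 6.34% of the counts in Sham and 9.50% to 29.0% in the 5/6 Nx groups. The smooth muscle markers that define the vessel wall were present in every library, none at 0, but their summed level was 2255 to 5116 CPM (read counts scaled to library size) in 5/6 Nx-HPi-Lp against 20850 to 24860 CPM in Sham. White adipocyte markers summed to 551 to 1353 CPM in Sham and 1217 to 8296 CPM in the 5/6 Nx groups. Sympathetic neuron markers summed to 1185, 24.04, 217 and 835 CPM in replicates 1 to 4 of 5/6 Nx-HPi-Lp. They summed to 20.45 to 148 CPM in 5/6 Nx-HPi-Hp, 10.7 to 105 CPM in 5/6 Nx-LPi-Lp and 13.67 to 16.03 CPM in Sham. Heart muscle markers reached 7299 CPM in 5/6 Nx-LPi-Lp replicate 2. Replicates 1 and 4 of 5/6 Nx-HPi-Lp and replicate 2 of 5/6 Nx-LPi-Lp stand apart in these markers, and their effect on each count is given where it changes it. Whether marker RNA followed the number of cells or the RNA per cell was not tested.

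The deposited FPKM, which divide counts by gene length and by library size, allow the members to be ranked against each other. In Sham, Ldha had the highest level at 96.3 ± 11.3 FPKM (SD, n = 4), followed by Pgk1 at 44.5 ± 6.39 FPKM. Ndrg1 at 22.1 ± 1.66 FPKM and Slc2a1 at 20.1 ± 1.74 FPKM came next, and their mice overlapped. Adm, Vegfa and Bnip3 had means of 14.9, 14.4 and 12.9 FPKM and also overlapped. Egln3 at 3.52 FPKM and Pdk1 at 2.97 FPKM overlapped near the bottom, and Ankrd37 was lowest at 1.19 FPKM. In 5/6 Nx-LPi-Lp the order changed below the first pair, with Vegfa at 43.9 ± 16.3 FPKM and Bnip3 at 30.7 ± 10.5 FPKM in the next places, above Ndrg1 at 14.3 ± 2.31 FPKM and Slc2a1 at 11.9 ± 3.25 FPKM. In 5/6 Nx-HPi-Lp the means of Bnip3 and Vegfa were 41.3 and 39.2 FPKM, and Adm stood at 5.09 ± 1.35 FPKM, near Pdk1 at 4.78 ± 0.38 FPKM.

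Against Sham, the 10 genes split rather than moved as 1 group. Nephrectomy on the same food (5/6 Nx-HPi-Lp against Sham) came with higher Ldha, Bnip3 and Vegfa and with lower Adm. A gene was called where it changed at least 2-fold and its Benjamini-Hochberg adjusted p from the quasi-likelihood test of edgeR was 0.05 or less, and these 4 were called. Of all 16513 genes tested in this comparison, 22.2% were called, with 15% higher and 7.18% lower. By the adjusted p alone, Pgk1 and Pdk1 were also higher and Slc2a1 also lower, 7 of 10 genes against 42.9% of all genes. Mice of the groups did not overlap for 5 genes that were higher and 2 that were lower, against 21.8% and 19.9% of all genes. The median log2 fold change of the 10 genes was 0.25, and that of all genes tested was -0.00275. Without replicates 1 and 4 of 5/6 Nx-HPi-Lp, the libraries richest in neuron markers, the same 4 genes and Pgk1, at 1.05, were called. Replicate 3, which was kept, still had 217 CPM of neuron markers, against 13.67 to 16.03 CPM in Sham. In a whole vessel, more RNA of a gene per cell and more cells of a type that carries it cannot be told apart.

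In the low-phosphate group, 5/6 Nx-LPi-Lp, 5 of the 10 were called against Sham, all higher: Vegfa, Pdk1, Ldha, Bnip3 and Pgk1. Of all 16071 genes, 10.9% were called, 8.79% higher and 2.08% lower. The adjusted p alone added Egln3 as higher and Slc2a1 and Ndrg1 as lower, 8 of 10 against 31.8% of all genes. The members' median log2 fold change was 1.00, beside 0.02 for all genes. In 5/6 Nx-HPi-Hp, Vegfa alone was called against Sham, where 12.2% of 15882 genes were called and 9.41% were called higher, and Ndrg1 and Adm were lower by the adjusted p alone, 3 of 10 against 31.4% of all genes. There the members' median was 0.51, beside 0.02 for all genes. Between 5/6 Nx-LPi-Lp and Sham, 5 genes were higher and 2 lower without overlap of the mice, against 16.2% and 17.7% of all genes. For 5/6 Nx-HPi-Hp these were 1 and 3 genes, against 15.1% and 18.4%. The 3 comparisons share the Sham mice, so that a high or low Sham value would enter each of them.

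**Figure D1:**
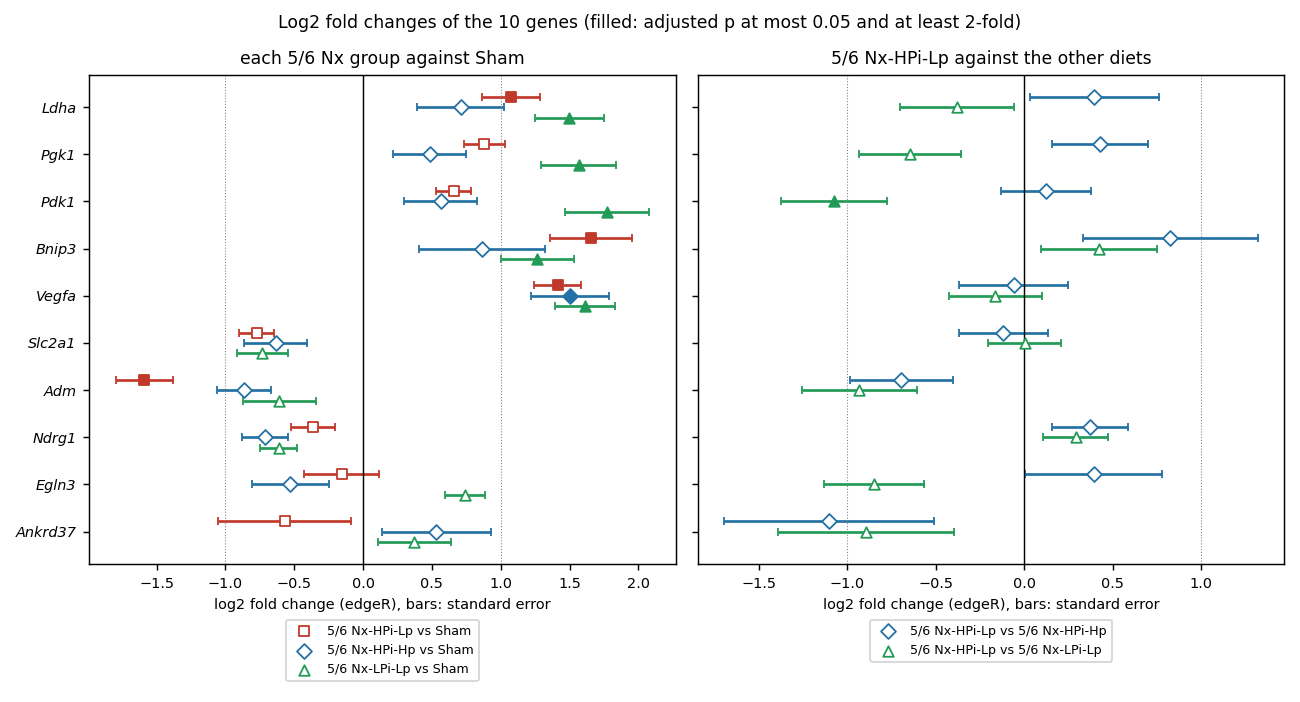
Log2 fold changes of the 10 hypoxia target genes (vertical axis: genes; horizontal axis: log2 fold change with its standard error) in each pair of groups of 4 mice, from edgeR's quasi-likelihood fits, with filled points for called genes. Vegfa, Ldha, Bnip3, Pgk1 and Pdk1 lie to the right of 0 in all 3 comparisons with Sham, and Slc2a1, Ndrg1 and Adm to the left.

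Ldha, Pgk1 and Pdk1 belong to glucose use: lactate dehydrogenase A turns pyruvate into lactate, phosphoglycerate kinase 1 makes ATP in glycolysis, and pyruvate dehydrogenase kinase 1 holds pyruvate back from the mitochondrion. Ldha (ENSMUSG00000063229, mm10 chromosome 7, 46841475 to 46855627) had 283, 315, 374 and 307 CPM in the 4 Sham mice. It had 425, 847, 902 and 605 CPM in 5/6 Nx-HPi-Lp, 597, 333, 869 and 288 CPM in 5/6 Nx-HPi-Hp and 1340, 699, 968 and 560.4 CPM in 5/6 Nx-LPi-Lp. Every mouse of 5/6 Nx-HPi-Lp and of 5/6 Nx-LPi-Lp lay above every Sham mouse, while 5/6 Nx-HPi-Hp was split between 2 mice at the Sham level and 2 above it. The log2 fold change of Ldha against Sham was 1.07 in 5/6 Nx-HPi-Lp (standard error, SE, of 0.21; edgeR adjusted p = 0.00288) and 1.497 in 5/6 Nx-LPi-Lp (SE 0.25, edgeR adjusted p = 0.00368). In 5/6 Nx-HPi-Hp it was 0.71 (edgeR adjusted p = 0.109). The first of these sits close to the 2-fold limit and was below it, at 0.99 or 0.94, without 5/6 Nx-HPi-Lp replicate 2 or 3, and at 0.93 with total-count scaling.

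Pgk1 (ENSMUSG00000062070, chromosome X, 106187100 to 106203699) had 85.2, 112, 114 and 89.3 CPM in Sham and 149, 196, 234 and 181 CPM in 5/6 Nx-HPi-Lp. In 5/6 Nx-HPi-Hp it had 173, 94.2, 203 and 88.7 CPM, and in 5/6 Nx-LPi-Lp 462, 214, 315 and 180.0 CPM. The pattern by mouse was that of Ldha, with replicates 2 and 4 of 5/6 Nx-HPi-Hp at the Sham level and replicate 1 of 5/6 Nx-LPi-Lp the highest of all 16. Pgk1 rose against Sham by a log2 fold change of 0.88 in 5/6 Nx-HPi-Lp, short of 2-fold (SE 0.15, edgeR adjusted p = 0.00122), and by 1.57 in 5/6 Nx-LPi-Lp (SE 0.27, edgeR adjusted p = 0.00401). Pdk1 (ENSMUSG00000006494, chromosome 2, 71873224 to 71903858) had 18.6, 25.5, 26.9 and 21.7 CPM in Sham and 36.4, 35.8, 42.3 and 35.8 CPM in 5/6 Nx-HPi-Lp. It had 42.1, 25.1, 49.6 and 20.1 CPM in 5/6 Nx-HPi-Hp and 129, 65.3, 78.8 and 40.1 CPM in 5/6 Nx-LPi-Lp. All mice of 5/6 Nx-HPi-Lp and 5/6 Nx-LPi-Lp were above all Sham mice, and 3 of the 4 in 5/6 Nx-LPi-Lp were also above every other mouse of the study. The log2 fold change of Pdk1 against Sham was 0.66 in 5/6 Nx-HPi-Lp (SE 0.13, edgeR adjusted p = 0.00282) and 1.77 in 5/6 Nx-LPi-Lp (SE 0.30, edgeR adjusted p = 0.00383), the largest change of any member in that comparison.

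Bnip3, an outer mitochondrial membrane protein that marks mitochondria for autophagy, had the highest log2 fold change of the 10 genes in 5/6 Nx-HPi-Lp against Sham, in size close to that of Adm. Bnip3 (ENSMUSG00000078566, chromosome 7, 138890836 to 138909519) had 21.1, 28.2, 39.95 and 27.5 CPM in Sham and 89.2, 68.2, 65.0 and 155 CPM in 5/6 Nx-HPi-Lp. It had 77.6, 36.3, 85.0 and 13.7 CPM in 5/6 Nx-HPi-Hp and 91.1, 64.7, 82.6 and 39.0 CPM in 5/6 Nx-LPi-Lp. The 5/6 Nx-HPi-Lp mice lay above every Sham mouse, 1 mouse of 5/6 Nx-LPi-Lp fell within the Sham range, and replicate 4 of 5/6 Nx-HPi-Hp was the lowest of all 16 mice. The log2 fold change of Bnip3 against Sham was 1.66 in 5/6 Nx-HPi-Lp (SE 0.30, edgeR adjusted p = 0.0018), 1.27 in 5/6 Nx-LPi-Lp (SE 0.27, edgeR adjusted p = 0.00773) and 0.86 in 5/6 Nx-HPi-Hp (edgeR adjusted p = 0.166). With the sympathetic neuron covariate the first of these was 1.01 and was not called (edgeR adjusted p = 0.0504). Without 5/6 Nx-HPi-Hp replicate 4 the last of these became 1.17 and was called (edgeR adjusted p = 0.00821). With all 16 libraries in 1 fit, the change in 5/6 Nx-LPi-Lp was 1.25 and was not called (edgeR adjusted p = 0.0627).

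Vegfa, the growth factor that calls new blood vessels, was called against Sham in all 3 groups, as no other member was. Vegfa (ENSMUSG00000023951, chromosome 17, 46016993 to 46032369) had 57.5, 61.4, 69.6 and 59.5 CPM in Sham. It had 124, 145, 199.7 and 211 CPM in 5/6 Nx-HPi-Lp, 192, 143, 277 and 90.8 CPM in 5/6 Nx-HPi-Hp and 282, 143, 184 and 141 CPM in 5/6 Nx-LPi-Lp. All 12 mice with 5/6 nephrectomy were above all Sham mice, the nearest being replicate 4 of 5/6 Nx-HPi-Hp. The log2 fold change was 1.41 in 5/6 Nx-HPi-Lp (SE 0.17, edgeR adjusted p = 0.000199), 1.502 in 5/6 Nx-HPi-Hp (SE 0.28, edgeR adjusted p = 0.00961) and 1.61 in 5/6 Nx-LPi-Lp (SE 0.22, edgeR adjusted p = 0.00292).

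**Figure D2:**
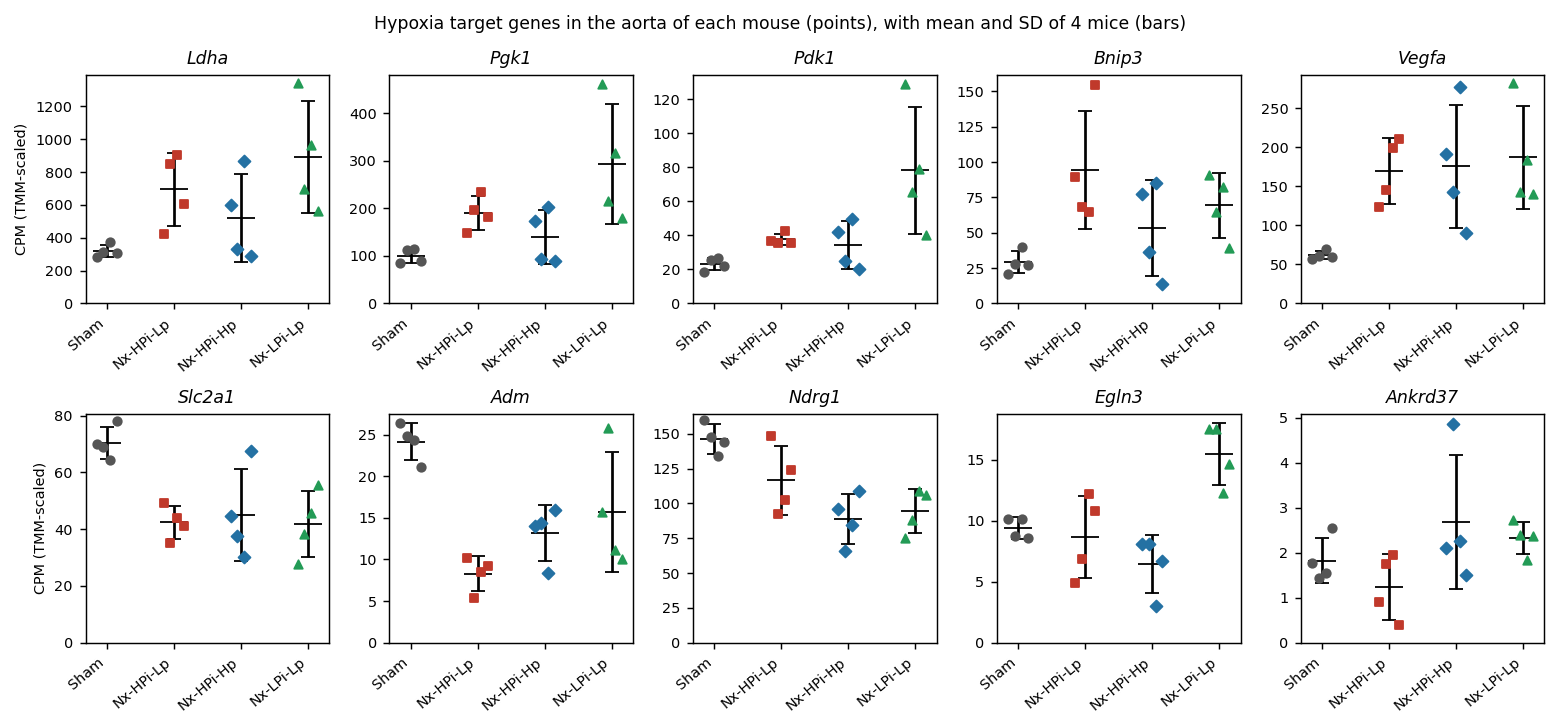
Level of each hypoxia target gene in each mouse (points; vertical axes: CPM) in 4 groups of 4 mice, with the mean and SD of each group (bars). Vegfa was above the Sham range in all 12 mice with 5/6 nephrectomy, and within 5/6 Nx-HPi-Hp, replicate 4 was lowest for Ldha, Pgk1, Pdk1, Bnip3 and Vegfa.

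Adm, Slc2a1 and Ndrg1 had lower means than Sham in each of the 5/6 Nx groups. Adm encodes adrenomedullin, a vasodilator peptide of the vessel wall. Adm (ENSMUSG00000030790, chromosome 7, 110627661 to 110629820) had 26.4, 24.8, 24.3 and 21.1 CPM in Sham and 10.2, 5.34, 8.44 and 9.26 CPM in 5/6 Nx-HPi-Lp. In 5/6 Nx-HPi-Hp it had 14.0, 14.4, 8.35 and 15.96 CPM, and in 5/6 Nx-LPi-Lp 15.7, 25.8, 11.2 and 10.03 CPM. Every mouse of 5/6 Nx-HPi-Lp and 5/6 Nx-HPi-Hp was below every Sham mouse, and 5/6 Nx-LPi-Lp replicate 2, the library rich in heart muscle markers, was within the Sham range. Adm fell in 5/6 Nx-HPi-Lp with a log2 fold change of -1.59 (SE 0.21, edgeR adjusted p = 0.000296) and in 5/6 Nx-HPi-Hp with -0.87, short of 2-fold (SE 0.20, edgeR adjusted p = 0.0132). In 5/6 Nx-LPi-Lp it was -0.61 and did not pass (SE 0.26, edgeR adjusted p = 0.104).

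Slc2a1 encodes GLUT1, the basal glucose transporter. Slc2a1 (ENSMUSG00000028645, chromosome 4, 119108711 to 119137983) had 70.1, 69.0, 64.5 and 78.1 CPM in Sham. It had 49.1, 35.1, 44.1 and 41.3 CPM in 5/6 Nx-HPi-Lp, 44.6, 37.6, 30.1 and 67.6 CPM in 5/6 Nx-HPi-Hp and 27.9, 38.4, 45.6 and 55.6 CPM in 5/6 Nx-LPi-Lp. Of the 12 mice with 5/6 nephrectomy, only 5/6 Nx-HPi-Hp replicate 4 reached the Sham range. Slc2a1 fell by 0.77 on the log2 scale in 5/6 Nx-HPi-Lp (SE 0.13, edgeR adjusted p = 0.00116) and by 0.73 in 5/6 Nx-LPi-Lp (SE 0.18, edgeR adjusted p = 0.0156). The difference was -0.63 in 5/6 Nx-HPi-Hp, just above the threshold (edgeR adjusted p = 0.0571). Ndrg1, which encodes a stress-responsive cytoplasmic protein (ENSMUSG00000005125, chromosome 15, 66929318 to 66969640), had 159.6, 148, 134 and 144 CPM in Sham and 148, 92.2, 103 and 124 CPM in 5/6 Nx-HPi-Lp. It had 95.8, 65.9, 84.7 and 109 CPM in 5/6 Nx-HPi-Hp and 74.9, 88.2, 109 and 106 CPM in 5/6 Nx-LPi-Lp. The last 2 groups lay wholly below Sham, and 5/6 Nx-HPi-Lp overlapped it through replicate 1. Ndrg1 fell by 0.71 on the log2 scale in 5/6 Nx-HPi-Hp (SE 0.17, edgeR adjusted p = 0.015) and by 0.61 in 5/6 Nx-LPi-Lp (SE 0.13, edgeR adjusted p = 0.00843), and was -0.36 in 5/6 Nx-HPi-Lp (edgeR adjusted p = 0.0945).

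Egln3, the prolyl hydroxylase that is itself switched on by the factor it restrains, had its highest levels in 5/6 Nx-LPi-Lp. Egln3 (ENSMUSG00000035105, chromosome 12, 54178981 to 54203860) had 10.2, 8.71, 10.1 and 8.56 CPM in Sham and 4.92, 6.86, 12.2 and 10.8 CPM in 5/6 Nx-HPi-Lp. It had 8.12, 8.05, 3.04 and 6.69 CPM in 5/6 Nx-HPi-Hp and 17.5, 17.5, 12.3 and 14.7 CPM in 5/6 Nx-LPi-Lp. The 5/6 Nx-LPi-Lp mice were above all other 12 mice and the 5/6 Nx-HPi-Hp mice below all Sham mice. Egln3 rose in 5/6 Nx-LPi-Lp against Sham by a log2 fold change of 0.74, short of 2-fold (SE 0.15, edgeR adjusted p = 0.00627). It was -0.53 in 5/6 Nx-HPi-Hp (SE 0.28, edgeR adjusted p = 0.163) and -0.16 in 5/6 Nx-HPi-Lp (edgeR adjusted p = 0.672). Ankrd37, an ankyrin repeat protein (ENSMUSG00000050914, chromosome 8, 45996902 to 46005707), was close to the limit of detection, with 6 to 95 counts in a library. It ranged from 1.43 to 2.55 CPM in Sham, 0.39 to 1.95 CPM in 5/6 Nx-HPi-Lp, 1.503 to 4.87 CPM in 5/6 Nx-HPi-Hp and 1.85 to 2.73 CPM in 5/6 Nx-LPi-Lp. None of its comparisons with Sham passed (edgeR adjusted p = 0.313 to 0.373). Ankrd37 overlaps Ufsp2, a gene on the opposite strand with 213 to 1367 counts, and the strand setting of the counting is not given in the sources used here, so its values are uncertain.

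Among the 5/6 Nx groups, edgeR called 0 or 1 of the 10 genes in each comparison, about the share of all genes, which was 0% to 11.9%. The 5/6 Nx-HPi-Lp mice differed from 5/6 Nx-HPi-Hp, which ate more protein, at 0 of the 10 genes by edgeR's quasi-likelihood test, by DESeq2 and by limma, where 8.12% of 16198 genes were called by edgeR. At an unadjusted p under 0.05 there was 1 gene, Adm, with a log2 fold change of -0.69 (SE 0.29, edgeR adjusted p = 0.136). Mice of these groups overlapped for all 10 genes, against no overlap for 20.6% of all genes. Against 5/6 Nx-LPi-Lp, which ate less phosphate, 1 gene was called, Pdk1, where 11.9% of 16253 genes were, and 3.98% were lower. The log2 fold change of Pdk1 was -1.08, so that it was lower with high phosphate (SE 0.30, edgeR adjusted p = 0.0335). Its highest 5/6 Nx-HPi-Lp mouse, at 42.3 CPM, was above the lowest 5/6 Nx-LPi-Lp mouse, at 40.1 CPM. The call of Pdk1 was lost without 5/6 Nx-HPi-Lp replicate 1, 2, 3 or 4 and without 5/6 Nx-LPi-Lp replicate 1 or 3, at log2 fold changes of -0.73 to -1.14. Egln3 alone did not overlap between these groups, against 11.4% of all genes that were lower without overlap, and had a log2 fold change of -0.85 (SE 0.28, edgeR adjusted p = 0.0609). Without 5/6 Nx-HPi-Lp replicate 3 Egln3 was called, at -1.06 (edgeR adjusted p = 0.0396). Setting 5/6 Nx-HPi-Hp against 5/6 Nx-LPi-Lp, edgeR called 0 members and 0% of 15850 genes, although 1420 genes had an unadjusted p under 0.05. There limma called 0 genes, and DESeq2 called 88 genes with 1 member, Egln3. Egln3 was also the member that did not overlap, against 2.88% of all genes that were lower without overlap. At an unadjusted p under 0.05, edgeR gave 3 members: Egln3 with a log2 fold change of -1.26 (adjusted p = 0.492), Pdk1 with -1.20 (adjusted p = 0.524) and Pgk1 with -1.08 (adjusted p = 0.527).

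Fat markers also differed from mouse to mouse. In 5/6 Nx-HPi-Hp, replicate 3 had the highest summed white adipocyte markers, 8106 CPM, and the highest Ldha, Pgk1, Pdk1, Bnip3 and Vegfa of its group. Replicate 4 of that group had the lowest sum, 1217 CPM, the lowest of those 5 genes and the highest Slc2a1, Adm and Ndrg1. In 5/6 Nx-LPi-Lp, replicate 1 had the highest sum, 8296 CPM, the highest of the same 5 genes and the lowest Slc2a1 and Ndrg1. In 5/6 Nx-HPi-Lp, replicate 4 had the highest sum, 6331 CPM, and the highest Bnip3 and Vegfa, but Ldha, Pgk1 and Pdk1 were highest in replicate 3. The white adipocyte list, such as Adipoq and Plin1, had 7 of its 8 genes called higher in 5/6 Nx-HPi-Lp than in Sham and 8 of 8 in each of the other groups, none being at 0. Its sum ranged from 551 to 1353 CPM in Sham, 3685 to 6331 CPM in 5/6 Nx-HPi-Lp, 1217 to 8106 CPM in 5/6 Nx-HPi-Hp and 2958 to 8296 CPM in 5/6 Nx-LPi-Lp. The brown adipocyte list, led by Ucp1, summed to 314 to 668 CPM in Sham, 579 to 1952 CPM in 5/6 Nx-HPi-Lp, 724 to 2783 CPM in 5/6 Nx-HPi-Hp and 1373 to 4886 CPM in 5/6 Nx-LPi-Lp, the group with the highest Pdk1 and Pgk1. Of its 4 tested genes, 2 were called higher than Sham in 5/6 Nx-HPi-Lp, 3 in 5/6 Nx-HPi-Hp and 4 in 5/6 Nx-LPi-Lp. Elovl3 was called lower in 5/6 Nx-HPi-Hp, with a mean of 10.9 CPM against 27.5 CPM in Sham. Zic1 had at most 19 counts in any library. With the mean of the white adipocyte markers as a covariate, 0 of the 10 genes were called in any comparison with Sham. Calls were lost over all genes as well, where 0 were left in place of 3666 for 5/6 Nx-HPi-Lp. For 5/6 Nx-HPi-Hp, 37 were left in place of 1932, while for 5/6 Nx-LPi-Lp it was 0 in place of 1748. The loss of calls was therefore not particular to the 10 genes. In 2 of these comparisons the sums do not overlap between the groups, so that the covariate and the group can hardly be told apart, and the part of fat in these results was not tested.

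**Figure D3:**
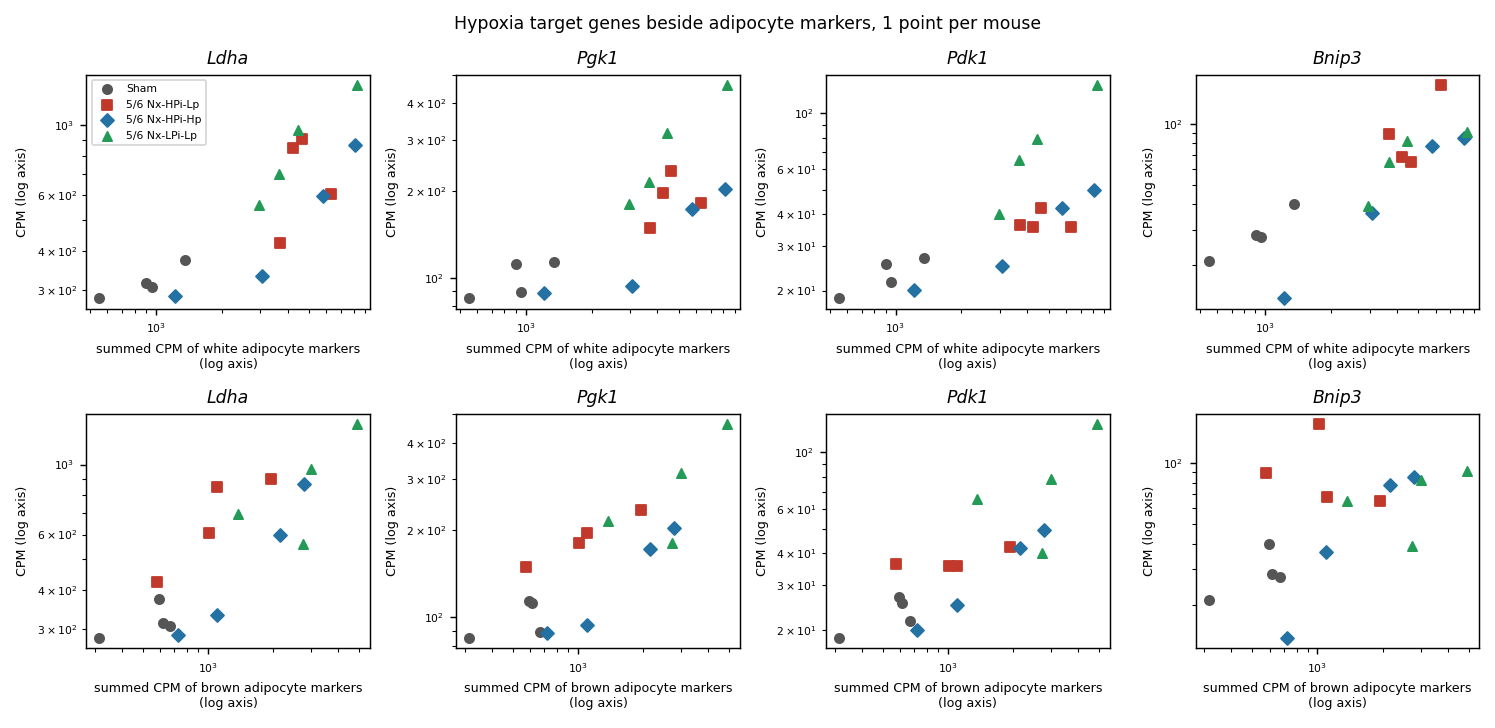
Level of Ldha, Pgk1, Pdk1 and Bnip3 (vertical axes: CPM, log scale) against the summed level of the white adipocyte markers (upper panels) and the brown adipocyte markers (lower panels; horizontal axes: CPM, log scale) in each of 16 mice, with a symbol for each group. The 4 Sham mice sit at 551 to 1353 CPM of white adipocyte markers, next to 5/6 Nx-HPi-Hp replicate 4 at 1217 CPM, and the points are a description without a test.

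Smooth muscle markers, Myh11 and Acta2 among them, were called lower in 5/6 Nx-HPi-Lp than in Sham for 7 of 7 genes, in 5/6 Nx-HPi-Hp for 1 of 7 and in 5/6 Nx-LPi-Lp for 1 of 7, and Smtn had a log2 fold change of 0.14 in 5/6 Nx-HPi-Hp. Their sums were 20850 to 24860 CPM in Sham, 2255 to 5116 CPM in 5/6 Nx-HPi-Lp, 6815 to 22040 CPM in 5/6 Nx-HPi-Hp and 7658 to 17600 CPM in 5/6 Nx-LPi-Lp. Adm was lowest in the group with the lowest sums, and 5/6 Nx-HPi-Hp replicate 4, with the highest sum of any mouse with 5/6 nephrectomy, had the highest Slc2a1 of those mice. Ndrg1 by group mean, and Adm within 5/6 Nx-LPi-Lp, did not follow the sums. Among the 5/6 Nx groups, Ndrg1 had its highest mean, 116.7 CPM, in 5/6 Nx-HPi-Lp, where the sums were lowest. There replicates 1 and 4, the libraries richest in neuron markers, had 148 and 124 CPM of Ndrg1. Replicates 2 and 3 had 92.2 and 103 CPM. The highest Adm of the mice with 5/6 nephrectomy, 25.8 CPM, was in 5/6 Nx-LPi-Lp replicate 2, the library rich in heart muscle markers. Its smooth muscle sum, 9913 CPM, was the second-lowest of its group. The other mice of that group had 10.03 to 15.7 CPM of Adm. Endothelial markers summed to 718 to 1058 CPM in Sham and 655 to 1133 CPM in the 5/6 Nx groups, none at 0, but single markers moved. Of 8, 3 were called higher in 5/6 Nx-HPi-Lp than in Sham and 2 in each of the other groups. The 3 were Emcn at 2.00, Kdr, a receptor of Vegfa, at 1.98 and Cdh5 at 1.41, while Pecam1 fell by 0.55 on the log2 scale, short of 2-fold (edgeR adjusted p = 0.0114). The part of each cell type in these changes was not tested.

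Of the 10 members, 5 were set against a chosen paralog (Ldhb, Pdk4, Slc2a4, Egln1 or Bnip3l), since a ratio within 1 library does not depend on scaling. The log2 ratio of FPKM of Ldha to Ldhb, the heart form of the enzyme, was 0.00 ± 0.04 in Sham (SD, n = 4), 1.08 ± 0.48 in 5/6 Nx-HPi-Lp, 0.07 ± 0.24 in 5/6 Nx-HPi-Hp and 0.30 ± 0.60 in 5/6 Nx-LPi-Lp. The mice of 5/6 Nx-HPi-Lp, at 0.47 to 1.63, lay above every Sham mouse and every 5/6 Nx-HPi-Hp mouse (exact permutation test, two-sided, p = 0.0286 for each, adjusted p = 0.122 over 30 tests). Ldhb itself had a log2 fold change against Sham of 1.19 in 5/6 Nx-LPi-Lp, where it was called (edgeR adjusted p = 0.00537), and of -0.05 in 5/6 Nx-HPi-Lp (edgeR adjusted p = 0.791). The ratio of Ldha to Ldhb was 0.79 higher in 5/6 Nx-HPi-Lp than in 5/6 Nx-LPi-Lp, and the mice overlapped (exact permutation test, two-sided, p = 0.0857, adjusted p = 0.234). Within 5/6 Nx-LPi-Lp, replicate 2, the library rich in heart muscle markers, had the lowest ratio, -0.55, and the other mice had 0.31 to 0.71.

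The ratio of Slc2a1 to Slc2a4, the insulin-regulated GLUT4 of muscle and fat, was -0.23 ± 0.37 in Sham, -1.62 ± 0.29 in 5/6 Nx-HPi-Lp, -1.97 ± 1.14 in 5/6 Nx-HPi-Hp and -2.96 ± 0.93 in 5/6 Nx-LPi-Lp. No mouse with 5/6 nephrectomy reached the Sham range (exact permutation test, two-sided, p = 0.0286 for each group, adjusted p = 0.122). Slc2a4 had log2 fold changes against Sham of 0.61, 1.15 and 2.01 in the 3 groups, passing the adjusted p in each (0.0249, 0.0264 and 0.00292 from edgeR). The ratio of Bnip3 to Bnip3l, its close relative in mitochondrial clearance, was -0.71 ± 0.37 in Sham, 0.79 ± 0.45 in 5/6 Nx-HPi-Lp, 0.12 ± 1.09 in 5/6 Nx-HPi-Hp and 0.50 ± 0.37 in 5/6 Nx-LPi-Lp, while Bnip3l itself had log2 fold changes of 0.10, -0.22 and 0.02 against Sham. Pdk4, the kinase of fasting, was called higher in all 3 groups, at 1.01, 1.68 and 2.51, and the ratio of Pdk1 to Pdk4 was between -2.49 and -3.52 in its group means (exact permutation test, two-sided, smallest p = 0.0571). The ratio of Egln3 to Egln1 had group means of -2.92 to -3.41 (exact permutation test, two-sided, smallest p = 0.429). None of the 30 ratio tests passed after adjustment, and 0.0286 is the smallest p that 4 against 4 mice allow. Of 16 paralogs tested, 4 were called higher in 5/6 Nx-HPi-Lp than in Sham, beside 15% of all genes: Pdk4, Slc2a3 at 2.89, Pgf, a placental growth factor of the Vegfa family, at 1.72, and Ndrg4 at 1.56. Pgf was also called higher in 5/6 Nx-HPi-Hp, at 1.20.

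**Figure D4:**
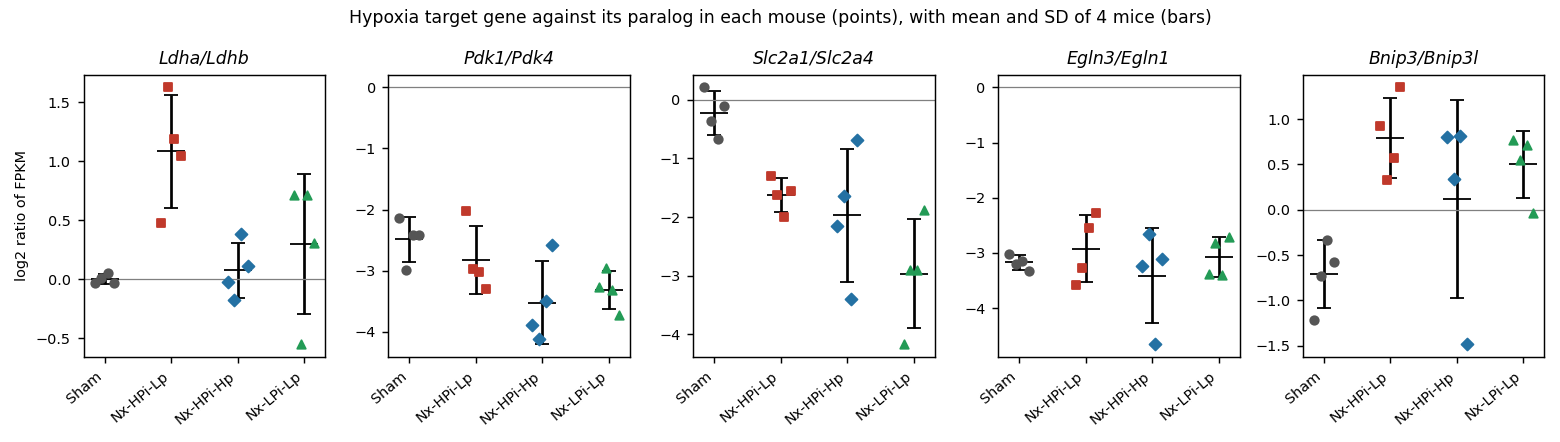
Log2 ratio of the FPKM of a hypoxia target gene to that of its paralog (vertical axes) in each mouse (points), with the mean and SD of 4 mice (bars). The Ldha to Ldhb ratio was above 0.47 in every 5/6 Nx-HPi-Lp mouse and between -0.03 and 0.05 in the Sham mice.

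Of 13 genes for the factors and their regulators, all tested, 2 were called higher in 5/6 Nx-HPi-Lp than in Sham and 0 lower, with a median log2 fold change of -0.13. Of all genes, 15% were called higher there, about the same share. The called genes were Arnt2, a partner subunit known from neurons, at 2.41 (SE 0.64, edgeR adjusted p = 0.0126), and Hif3a, at 2.17 (SE 0.63, edgeR adjusted p = 0.0192). Arnt2 had 16 to 32 counts and Hif3a 20 to 73 counts in the Sham libraries, and 5/6 Nx-HPi-Lp contains the libraries rich in neuron markers. The mice overlapped for Hif3a, at 0.74 to 3.16 CPM in Sham and 2.48 to 19.8 CPM in 5/6 Nx-HPi-Lp. Hif1a was at 75.0 ± 8.55 CPM in Sham and 87.7 ± 36.8 CPM in 5/6 Nx-HPi-Lp, with a log2 fold change of 0.18 (edgeR adjusted p = 0.594). Epas1 was at 240.4 ± 39.96 CPM in Sham and 312 ± 12.6 CPM in 5/6 Nx-HPi-Lp, at 0.33 (edgeR adjusted p = 0.0482). Egln1, the main hydroxylase, was lower in 5/6 Nx-HPi-Lp at -0.49 (edgeR adjusted p = 0.00521) and higher in 5/6 Nx-LPi-Lp at 0.67 (edgeR adjusted p = 0.0173), and was called between these groups at -1.11 (edgeR adjusted p = 0.00722).

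Other glycolysis genes were higher beside Ldha, Pgk1 and Pdk1 in 5/6 Nx-LPi-Lp. Of 18 glycolysis rows (17 symbols, Aldoa having 2), 6 were called higher and 0 lower in 5/6 Nx-LPi-Lp against Sham, with a median log2 fold change of 0.87, where 8.79% of all genes were called higher. In 5/6 Nx-HPi-Hp 1 was called higher, with a median of 0.28, beside 9.41% of all genes. In 5/6 Nx-HPi-Lp 2 were called higher, with a median of 0.05, beside 15% of all genes. The 2 were Aldoc, an aldolase known from brain, at 4.68 (SE 1.11, edgeR adjusted p = 0.00749) and Slc2a3, the GLUT3 transporter of neurons and white blood cells, at 2.89 (SE 0.60, edgeR adjusted p = 0.0038). The 6 in 5/6 Nx-LPi-Lp, named after their values were seen, were Eno1 at 1.94, Pfkl at 1.86, Hk2 at 1.81, Aldoa at 1.59, Pgam1 at 1.16 and Pkm at 1.00. In 5/6 Nx-HPi-Lp against 5/6 Nx-LPi-Lp, 2 of the 18 were called higher and 5 lower, with a median of -0.80, beside 7.9% and 3.98% of all genes.

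Among 32 other targets of the factors, of which 31 could be tested in 5/6 Nx-HPi-Lp against Sham, 8 were called higher and 3 lower, with a median log2 fold change of 0.07, beside 15% and 7.18% of all genes. The highest were Car12, a carbonic anhydrase, at 4.76 with 0 to 5 counts in the Sham libraries, and Hmox1, heme oxygenase 1, at 3.94 (SE 0.53, edgeR adjusted p = 0.000343). Hmox1 was 39.6 to 228 CPM in 5/6 Nx-HPi-Lp and at most 15.3 CPM in every other mouse. The lowest were Car9, the carbonic anhydrase widely used as a mark of hypoxia, at -1.998 (SE 0.52, edgeR adjusted p = 0.0118), and Vldlr, a lipoprotein receptor, at -1.42. Cxcr4, Ddit4, Hmox1 and Loxl2, and Slc2a3 of the glycolysis list, were called higher in 5/6 Nx-HPi-Lp against each of the other 3 groups. The share of all genes called higher in all 3 comparisons was not counted. Cxcr4, a chemokine receptor, had log2 fold changes of 2.60, 1.80 and 2.09 against Sham, then 5/6 Nx-HPi-Hp, then 5/6 Nx-LPi-Lp, and Loxl2, a collagen crosslinking enzyme, had 2.24, 2.48 and 2.89. Hmox1 and Cxcr4 are also known from macrophages, whose markers summed to 371 to 1042 CPM in 5/6 Nx-HPi-Lp, 196 to 231 CPM in Sham and 187 to 337 CPM in the other groups, none at 0. Of 7 macrophage markers, 6 were called higher in 5/6 Nx-HPi-Lp against each of the other 3 groups. Fibroblast markers summed to 2873 to 12750 CPM in 5/6 Nx-HPi-Lp, 1716 to 2637 CPM in Sham and 1068 to 2650 CPM in the other groups, none at 0. Of 6 such markers, 3 were called higher in 5/6 Nx-HPi-Lp than in Sham and 5 against each of the other diets. The part of these cells in the 5 genes was not tested.

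**Figure D5:**
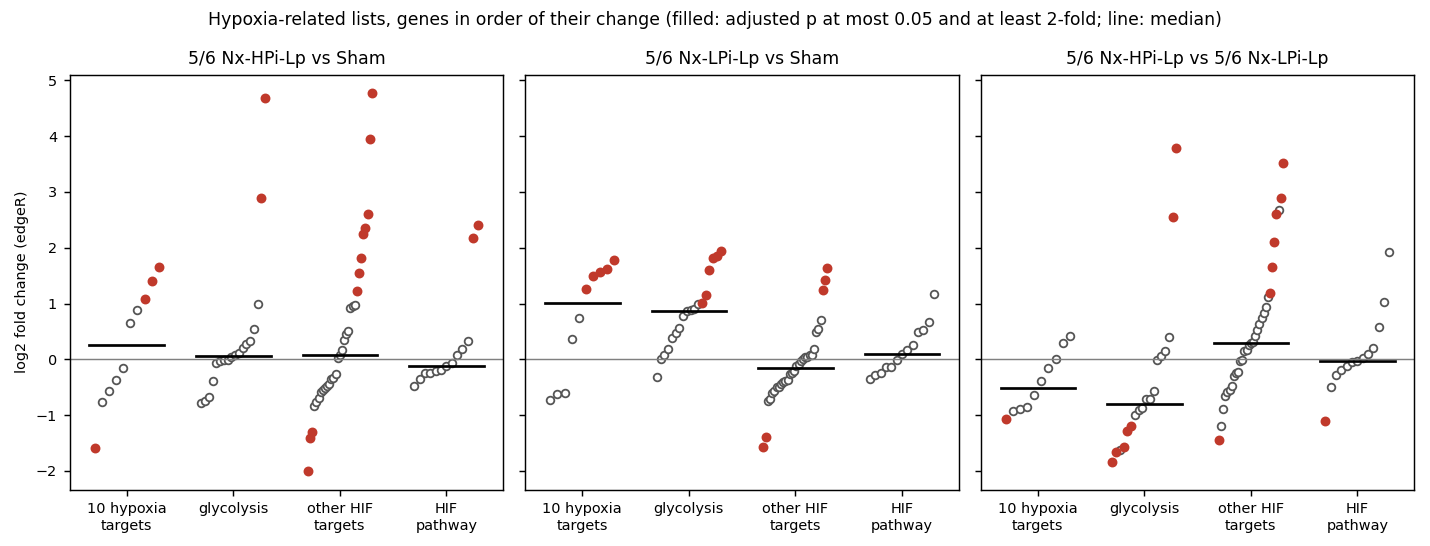
Log2 fold changes of the genes of each list (points) in 3 comparisons between groups, with the median of each list (lines) and filled points for called genes. The glycolysis list has a median of 0.87 in 5/6 Nx-LPi-Lp against Sham and 0.05 in 5/6 Nx-HPi-Lp against Sham.

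The patterns of Ldha, Pgk1 and Pdk1 over the 16 mice were close to each other. Likeness was the root mean square difference of log2(CPM + 1), each gene centred on its own mean, over 13603 protein-coding genes. Pgk1 and Ldha differed by 0.18, with 2 genes nearer to Pgk1 and 3 nearer to Ldha, and Pdk1 differed from Pgk1 by 0.19, with 4 genes nearer. Vegfa was nearest to Ldha among the members at 0.38, with 218 genes nearer, Slc2a1 and Ndrg1 were each other's nearest member at 0.26, and Adm was nearest to Slc2a1 at 0.53, with 1425 genes nearer. The nearest gene of all was Coa5 for Pgk1 (0.13), Tmed5 for Ldha (0.15), Pdhx for Pdk1 (0.15), Gpat4 for Vegfa (0.20) and Abhd5 for Bnip3 (0.30). It was Mybl1 for Ndrg1 (0.14), Rbms3 for Slc2a1 (0.17), Mterf2 for Ankrd37 (0.23), Nqo1 for Adm (0.29) and Zfp189 for Egln3 (0.35). The 16 points share their libraries and depth, and the ranking has no test.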

How the data were processed

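Aortic mRNA of 16 mice was measured by bulk RNA sequencing, 4 mice per group as the labels give them. The authors deposited raw counts per gene, obtained with featureCounts 1.5.0-p3 from cleaned reads that HISAT2 had placed on mm10. They also deposited FPKM, counts scaled by gene length and library size. Strand and multi-mapping options are not given in the sources used here. From the counts, each pair of groups (8 libraries) was fitted over all genes left by filterByExpr after TMM scaling, with edgeR 4.0.16 (quasi-likelihood test, Benjamini-Hochberg adjustment) in R 4.3.3. A call needed a log2 fold change of 1 or more in size with an adjusted p no higher than 0.05. Each SE of a log2 fold change was back-calculated, as its size over the square root of the F statistic of that test. All 10 members passed the filter in each of the 6 comparisons. CPM used TMM scaling of the 16 libraries together. Totals were 13659525 to 57276915 counts, and errors given are between mice. Separate mice are named in the labels, and no pair of libraries was a copy (lowest chi-square per gene 21.9 between replicates).

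FPKM were used for levels between genes and for ratios to paralogs, tested by two-sided exact permutation over 4 against 4 libraries, with scipy 1.17.1 in Python 3.11.15. Figures were drawn with matplotlib 3.10.9. Promoters came from RefSeq and gene models from GENCODE vM21, both on GRCm38. The replicate numbers were not used as pairs. As alternatives, DESeq2 1.42.0, scaling by RLE or by total count, limma 3.58.1 with a pseudocount of 1 or 0.1 on log2 FPKM of genes above 0.5 FPKM, no filter, at least 10 counts, 1 fit of all libraries, a replicate block, no fold threshold, mitochondrially encoded genes left out, marker covariates and leaving out each library were tried. The brown adipocyte covariate and the joint removal of 5/6 Nx-HPi-Lp replicates 1 and 4 were chosen after seeing the data. On simulated data for 5/6 Nx-HPi-Lp against Sham (16333 genes), edgeR called 188 of 200 genes changed by a log2 of 2, with 8 false calls, and DESeq2 called 189 with 19. The simulation gave all genes in both groups the same relative spread and a larger change than any member had. Its share of detected genes therefore does not carry over to the members.

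The members and lists were chosen with earlier results of these data known, and a published list made from these libraries holds Bnip3, Vegfa and Adm. All members were named. From the other lists the named genes were the 2 highest and 2 lowest called in 5/6 Nx-HPi-Lp against Sham, genes called in all 3 of its comparisons, tested paralogs, and the gene most like each member.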

Additional observations from a re-analysis of the deposited data

Results flagged for a closer look

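In 5/6 Nx-HPi-Lp, Pdk1 had 36.4, 35.8, 42.3 and 35.8 CPM, so that replicate 3 stood apart from the other 3, which lay close together. Its gap to the nearest of them was 0.905 of the range of the group, past the limit of Dixon's test for 4 samples. Of 40 pairs of a member and a group, this was the 1 that passed, where chance flags about 1 in 20. Without that mouse the log2 fold change of Pdk1 against 5/6 Nx-LPi-Lp was -1.14 and was no longer called (adjusted p = 0.0574 from edgeR).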

How the results depend on the processing

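Against Sham, 4 of the 10 genes were called in 5/6 Nx-HPi-Lp, 1 in 5/6 Nx-HPi-Hp and 5 in 5/6 Nx-LPi-Lp, which became 7, 3 and 8 without the 2-fold threshold. The white adipocyte covariate left 0 of the members called in each of these comparisons, where of all genes it called 0, 37 and 0 in place of 3666, 1932 and 1748. Under it, 4 log2 fold changes of members called without it turned. They were Bnip3 to -0.51 for 5/6 Nx-HPi-Lp, and Pdk1 to -0.0701, Bnip3 to -0.35 and Pgk1 to -0.00324 for 5/6 Nx-LPi-Lp. The brown adipocyte covariate, added after seeing the data, left 3, 1 and 0 members called. Of all genes it called 3490, 1352 and 0. For 5/6 Nx-HPi-Hp against Sham, total-count scaling gave 2 calls, with 1864 of all genes called. There the sympathetic neuron covariate gave 7, where of all genes it called 3374 in place of 1932. That covariate also added Slc2a1 for 5/6 Nx-HPi-Lp (-1.07), where it ended the call of Bnip3 (1.01), and for 5/6 Nx-LPi-Lp (-1.08), and total-count scaling ended that of Ldha for 5/6 Nx-HPi-Lp (0.93). Total-count scaling moved the median log2 fold change of all genes against Sham to -0.14 in 5/6 Nx-HPi-Lp, -0.19 in 5/6 Nx-HPi-Hp and -0.22 in 5/6 Nx-LPi-Lp, and turned no called member. For 5/6 Nx-HPi-Lp against 5/6 Nx-LPi-Lp, the 1 call became 0 with limma at either pseudocount, with each of the 3 marker covariates and without replicates 1 and 4 of 5/6 Nx-HPi-Lp. Of all genes, the brown adipocyte covariate called 39 there in place of 1931, and Pdk1 was at -0.52 under it. There the fold change of Pdk1, -1.08 as reported, was -0.95 under the white adipocyte covariate (edgeR adjusted p = 0.0119, short only of 2-fold), -0.94 with limma at a pseudocount of 0.1 and -1.02 without those replicates. For 5/6 Nx-HPi-Hp against 5/6 Nx-LPi-Lp, DESeq2 called 1 gene. What caused these shifts was not tested.

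Leaving out 1 mouse at a time gave 3 to 4 calls against Sham in 5/6 Nx-HPi-Lp, 1 to 2 in 5/6 Nx-HPi-Hp and 5 in 5/6 Nx-LPi-Lp. For 5/6 Nx-HPi-Lp against 5/6 Nx-LPi-Lp it gave 0 to 1, and elsewhere 0. Correlations between same-numbered mice were -0.20 to 0.41, so the numbers were not taken as pairs. A replicate block gave 0 calls for 5/6 Nx-HPi-Lp against 5/6 Nx-LPi-Lp and changed no other count of members. Over all genes it called 371 in place of 1315 for 5/6 Nx-HPi-Lp against 5/6 Nx-HPi-Hp, 1271 in place of 1931 against 5/6 Nx-LPi-Lp, and 10 in place of 0 for 5/6 Nx-HPi-Hp against 5/6 Nx-LPi-Lp. Counting error limits Ankrd37, with 6 counts in its lowest library.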
